A study of Homo sapiens with 48 samples.

Results

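Matrix metalloproteinases (MMPs) and tissue inhibitors of metalloproteinases (TIMPs) were examined in BEAS-2B cells, an immortalised line of human bronchial epithelial cells. The 10 genes were MMP1, MMP2, MMP3, MMP9, MMP10, MMP13, MMP14, TIMP1, TIMP2 and TIMP3, out of 19775 genes with a probe set of their own on the array. A probe set belonged to a gene where that gene was its only annotated symbol. All 10 genes were on the array, with 20 probe sets between them, and the probe set with the highest mean of log2(signal + 16) over all arrays stood for its gene. The choice of probe set used no treatment effect, while the genes were chosen with earlier results of these data known.

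RNA came from cells given GS-5759 (10 nM), a single molecule that acts both as a β2-adrenoceptor agonist and as an inhibitor of phosphodiesterase 4 (PDE4), or indacaterol with GSK 256066 (Ind/GSK, each 10 nM), or vehicle. Indacaterol stimulates the β2-adrenoceptor for a long time after a dose, and GSK 256066 inhibits PDE4, so both treatments act on cAMP, which the receptor raises and PDE4 breaks down. Cells were collected after 1, 2, 6 or 18 h, with 4 replicates per group, 12 groups and 48 arrays. All groups were grown in serum-free keratinocyte medium with growth supplements, and then without the supplements before treatment. The labels do not say that replicates were separate cultures, so the spread behind each p-value is that between these samples and may be technical.

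MMPs are zinc-dependent enzymes, made as inactive precursors, that cut collagens, laminins and other proteins of the extracellular matrix. TIMPs bind their active sites and block them. In the airway the balance between both is known for its part in epithelial repair and in the remodelling of the airway wall in asthma and chronic obstructive pulmonary disease. Several MMP genes are textbook targets of the transcription factor AP-1, and MMP1, MMP3, MMP10 and MMP13 lie in a run of 9 MMP genes on chromosome 11 (MMP7, MMP20, MMP27, MMP8, MMP10, MMP1, MMP3, MMP12 and MMP13, in the order of the RefSeq annotation).

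RefSeq promoter windows (build GRCh38.p14) were matched for MMP10, MMP14, TIMP1 and TIMP3, 4 of the 10 genes. The 250 bases before each start were searched for the AP-1 motif TGANTCA and the cAMP response element TGACGTCA, whose letters read the same on both strands. MMP10, a stromelysin, held the only AP-1 match of the 4, starting 67 bases before the start and overlapping no other motif searched. Such a match was found in 6.57% of 35116 promoters, and in 2.75% within the last 100 bases. None of the 4 held the cAMP response element, which was found in 1.65% of promoters. These are letter matches in these windows and say nothing of binding. The 100 bases before the start are printed for MMP10, with the AP-1 match in capitals (chr11:102780629-102780728, minus strand), and for TIMP3, the gene that differed most between arrays, with each CpG in capitals (chr22:32801605-32801704, plus strand).
MMP10: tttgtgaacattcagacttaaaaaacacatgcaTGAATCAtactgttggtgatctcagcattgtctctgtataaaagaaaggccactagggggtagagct
TIMP3: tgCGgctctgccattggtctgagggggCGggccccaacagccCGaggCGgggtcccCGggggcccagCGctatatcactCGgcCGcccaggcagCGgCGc
TIMP3 held 26 CpG in its 250 bases, more than 80.4% of promoters, and MMP10 held 2, more than 14.7% of promoters. The median over all promoters was 11.

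The arrays of replicate 3 stood apart from the others. In 474 of 19775 genes all 12 arrays of replicate 3 lay above the other 36 arrays, and in 364 genes all lay below, 4.24% of genes together. The same count was 14 genes for replicate 1, 1 for replicate 2 and 9 for replicate 4. By size, the first 3 genes higher in replicate 3 were KRT14 (12.90 on the log2(signal + 16) scale), S100A9 (10.63) and KRT5 (7.53); KRT14 and KRT5 are keratins of basal airway cells, and S100A9 is a subunit of calprotectin. The summed signal of the 8 epithelial markers on the array ran from 240110.0 to 492953 in replicate 3, and from 9771 to 16034 in the other 36 arrays. KRT14 made up 77.8% to 89.5% of that sum in replicate 3, and without it the sums were 51077 to 58188 in replicate 3 and 9753 to 16003 in the other arrays. KRT8 and KRT18, keratins of simple epithelia with mean signals of 5046 and 7846, were only 0.46 and 0.07 higher in replicate 3. Outside replicate 3, 5 of 8 epithelial markers averaged above the expression threshold given below, with 4 of 10 mesenchymal, 2 of 8 leukocyte and 1 of 8 endothelial markers. Every group holds exactly 1 array of replicate 3. Without these arrays, 0 of 190 differences of the 10 genes over all 19 comparisons described here were called by limma, and 12 had an unadjusted p under 0.05. That fit has fewer arrays per group, and the share of all genes called in it was not counted. Its absent calls are therefore no result about these genes.

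Signals of different probe sets do not rank transcripts, so each gene was set against a threshold and against itself. A gene counted as measurable, and was tested, where its mean lay above the 40th percentile of all gene means (7.41 on the log2(signal + 16) scale, a signal of about 154). By that rule 5 of the 10 genes were tested among 11865: MMP2, MMP9, MMP14, TIMP1 and TIMP2. MMP1, MMP3, MMP10, MMP13 and TIMP3 were below it in all 12 groups, by group means on that scale. For TIMP3 this holds only because the low arrays outweigh replicate 3 on the log2 scale. Its replicate 3 arrays, at signals of 499.8 to 822, were all above the threshold. On the linear scale its group means ran from 173 to 253. For comparison, 20 genes of unrelated tissues had a median of 5.68 on the same scale, and 4 of them were above the threshold.

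**Figure D1:**
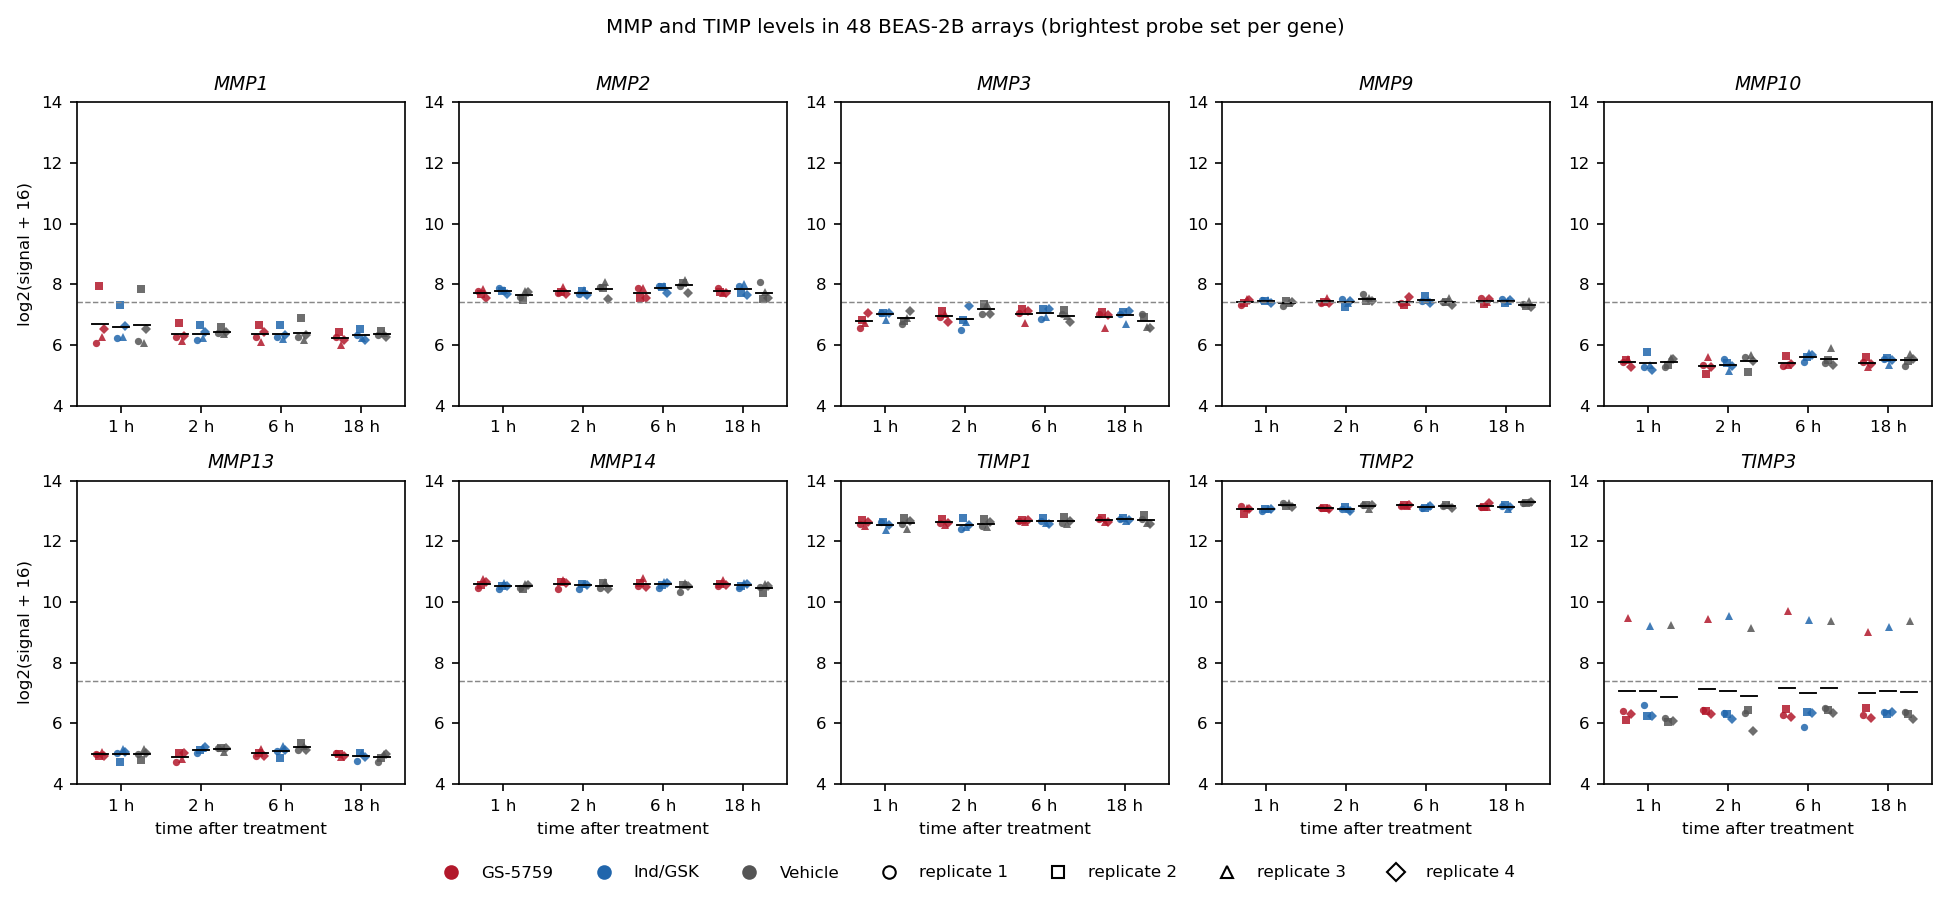
Levels of the 10 genes on the log2(signal + 16) scale, by time after treatment. Each point is an array, coloured by treatment and shaped by replicate, each bar is the mean of 4 arrays, and the dashed line is the threshold at 7.41. TIMP1, TIMP2 and MMP14 lie far above the line, MMP2 just above it and MMP9 on it, while the triangles of replicate 3 stand above all other points for TIMP3.

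TIMP2, the inhibitor that also helps MMP14 to activate pro-MMP2 at the cell surface, had a signal of 7699 to 10056 over the 48 arrays. Its lowest group mean was 8501 ± 172 (Ind/GSK at 1 h) and its highest 9972 ± 96.5 (vehicle at 18 h; SD, n = 4). TIMP1, a broad inhibitor of secreted MMPs, ran from 5336 to 7493, with group means between 6004 ± 488 (Ind/GSK at 1 h) and 6757 ± 155 (Ind/GSK at 18 h). Both inhibitors were thus well above the threshold in each array. MMP14, the membrane-bound enzyme MT1-MMP that activates pro-MMP2, ran from 1247 to 1747, and its 3 other probe sets averaged 463, 446 and 353.

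The gelatinases MMP2 and MMP9, which cut basement membrane collagen, were near the threshold. MMP2 ran from 164 to 269 with a median of 202, above the threshold in all 12 group means. Its other probe sets averaged 124 and 3.64, both below the threshold. MMP9 ran from 136 to 189, and 3 of its 12 group means were below the threshold. A difference in MMP9 is therefore a difference close to the level of genes not measurable here.

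The interstitial collagenases MMP1 and MMP13, which cleave fibrillar collagen, and the stromelysins MMP3 and MMP10, which have broad substrates and activate other MMPs, gave low signals. MMP3 ran from 74.7 to 148, MMP1 from 48.3 to 234, MMP10 from 17.2 to 43.5 and MMP13 from 10.4 to 25. MMP1 was higher in replicate 2, with 70.8 to 234 in its 12 arrays, and 48.3 to 82.1 in the other 36 arrays. The 3 highest MMP1 signals were the replicate 2 arrays at 1 h: 234 with GS-5759, 146 with Ind/GSK and 214 with vehicle. At the other times replicate 2 was lower, with 80.6 to 90.6 at 2 h, 85.2 to 102 at 6 h and 70.8 to 75.4 at 18 h over the 3 treatments.

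Within each gene, the 12 group means were placed in order from low to high. In all 110 pairs of neighbouring groups over the 10 genes, the arrays of both groups overlapped. Overlap of neighbours is likely among 12 closely placed means, and for TIMP3 every group holds a high array. The count therefore does not show that groups further apart overlap. Some did not, as for TIMP2 at 18 h, given below.

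TIMP3, the inhibitor that stays bound to the matrix and also blocks ADAM proteases, differed most between arrays. Its signal was 499.8 to 822 in the 12 arrays of replicate 3 (median 647), and 37.3 to 80.8 in the other 36 arrays (median 63.8), with no overlap. The difference was 3.06 on the log2(signal + 16) scale, rank 41 of 19775 genes by that difference. TIMP3 was the only one of the 10 genes whose replicate 3 arrays did not overlap the others. The 3 other TIMP3 probe sets differed by 3.99, 3.89 and 3.10, each with no overlap.

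**Figure D2:**
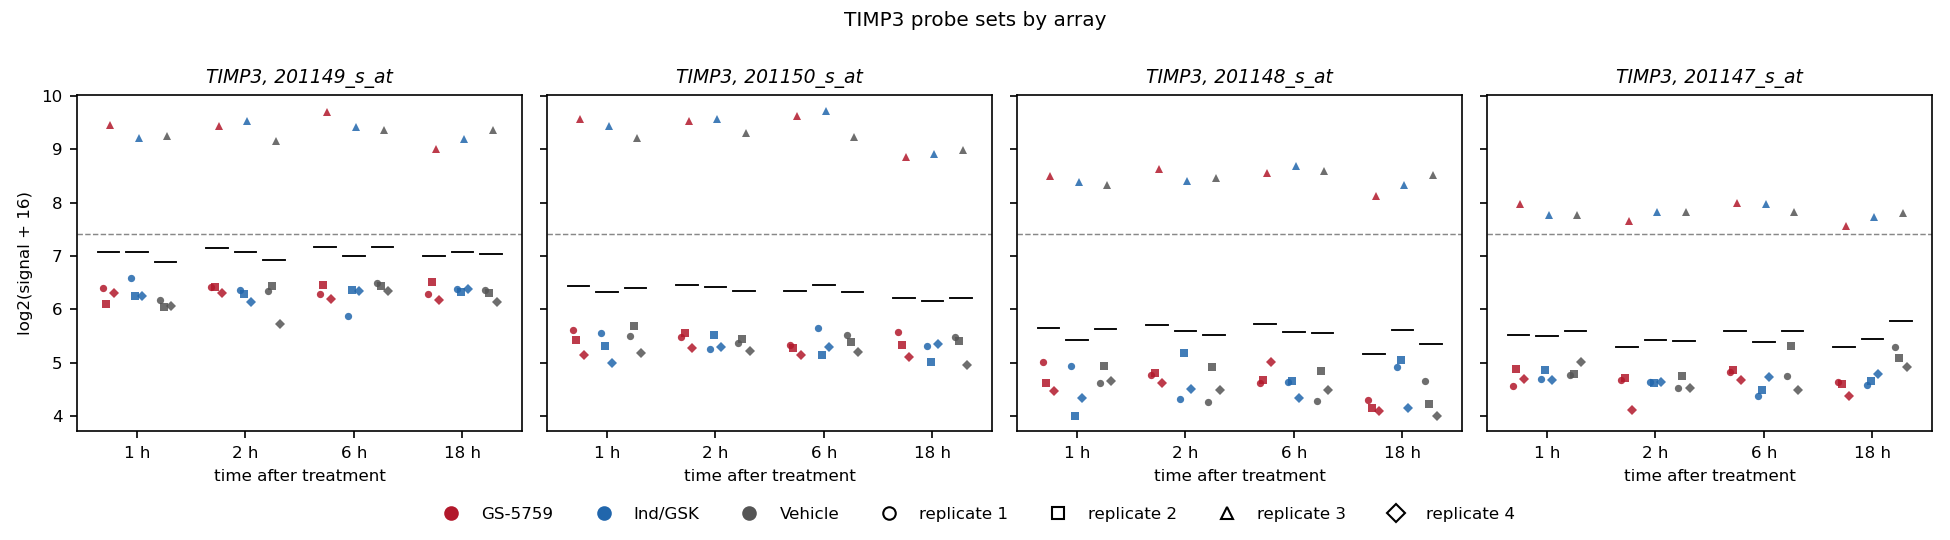
The 4 TIMP3 probe sets on the log2(signal + 16) scale by time after treatment, with 1 point per array, coloured by treatment and shaped by replicate. The bars are group means, the dashed line is the threshold at 7.41, and in each panel the 12 triangles of replicate 3 lie above all 36 other points.

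The split held within each treatment and time. With GS-5759 for 6 h, TIMP3 signals of replicates 1 to 4 were 61.8, 72.3, 822 and 57.7. With Ind/GSK for 6 h they were 42.8, 66.4, 668 and 65.4, and with vehicle for 6 h 74.8, 71.3, 646 and 65.8. Replicate 3 was thus about as high without drug as with either treatment. Over the 48 arrays the genes whose levels correlated most with TIMP3 were KRT14, KRT5 and ADIRF (Pearson r = 0.99 each), a choice made after the TIMP3 values had been seen. These arrays share the replicate 3 split, and each r includes it. The part of the epithelial marker difference in the TIMP3 difference was not tested. In RNA from whole cultures, fewer cells of a type and less RNA per cell cannot be told apart.

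Within each replicate, TIMP3 differences between treatments were smaller than this split. Its 8 log2 differences from vehicle ran from -0.63 to 0.41 in replicate 1, -0.14 to 0.21 in replicate 2, -0.36 to 0.39 in replicate 3 and -0.15 to 0.58 in replicate 4. The SE of a TIMP3 difference was 1.05 in the fit of group means and 0.12 with replicate as a block. No TIMP3 difference from vehicle was called in either fit, and the lowest adjusted p with the block was 0.258.

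The first comparison asked whether either treatment changed these genes relative to vehicle at the same time. None of the 5 tested genes was called in any of the 8 comparisons (0 of 40 differences by limma at an adjusted p under 0.05, 6 at an unadjusted p under 0.05). The share of all 11865 tested genes called was 0.32% for GS-5759 and 2.47% for Ind/GSK at 1 h, 3.05% and 4.5% at 2 h, 1.88% and 5.01% at 6 h, and 0% and 0.0506% at 18 h. Differences of the tested genes ran from -0.25 to 0.13 on the log2 scale. All their 95% intervals lay between -0.47 and 0.35, so changes below 0.722-fold or above 1.28-fold were outside every interval.

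The 5 genes below the threshold were fitted among all 19775 genes. Again 0 of 40 differences were called by limma, with 3 at an unadjusted p under 0.05. In that fit the share of all genes called was 0.217% for GS-5759 and 1.05% for Ind/GSK at 1 h, 1.58% and 2.12% at 2 h, 0.961% and 2.1% at 6 h, and 0% and 0.0303% at 18 h. Without TIMP3 their differences ran from -0.33 to 0.19, with interval bounds from -0.72 to 0.63. Folds of such dim probe sets understate changes in RNA, since the background adds to both groups.

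**Figure D3:**
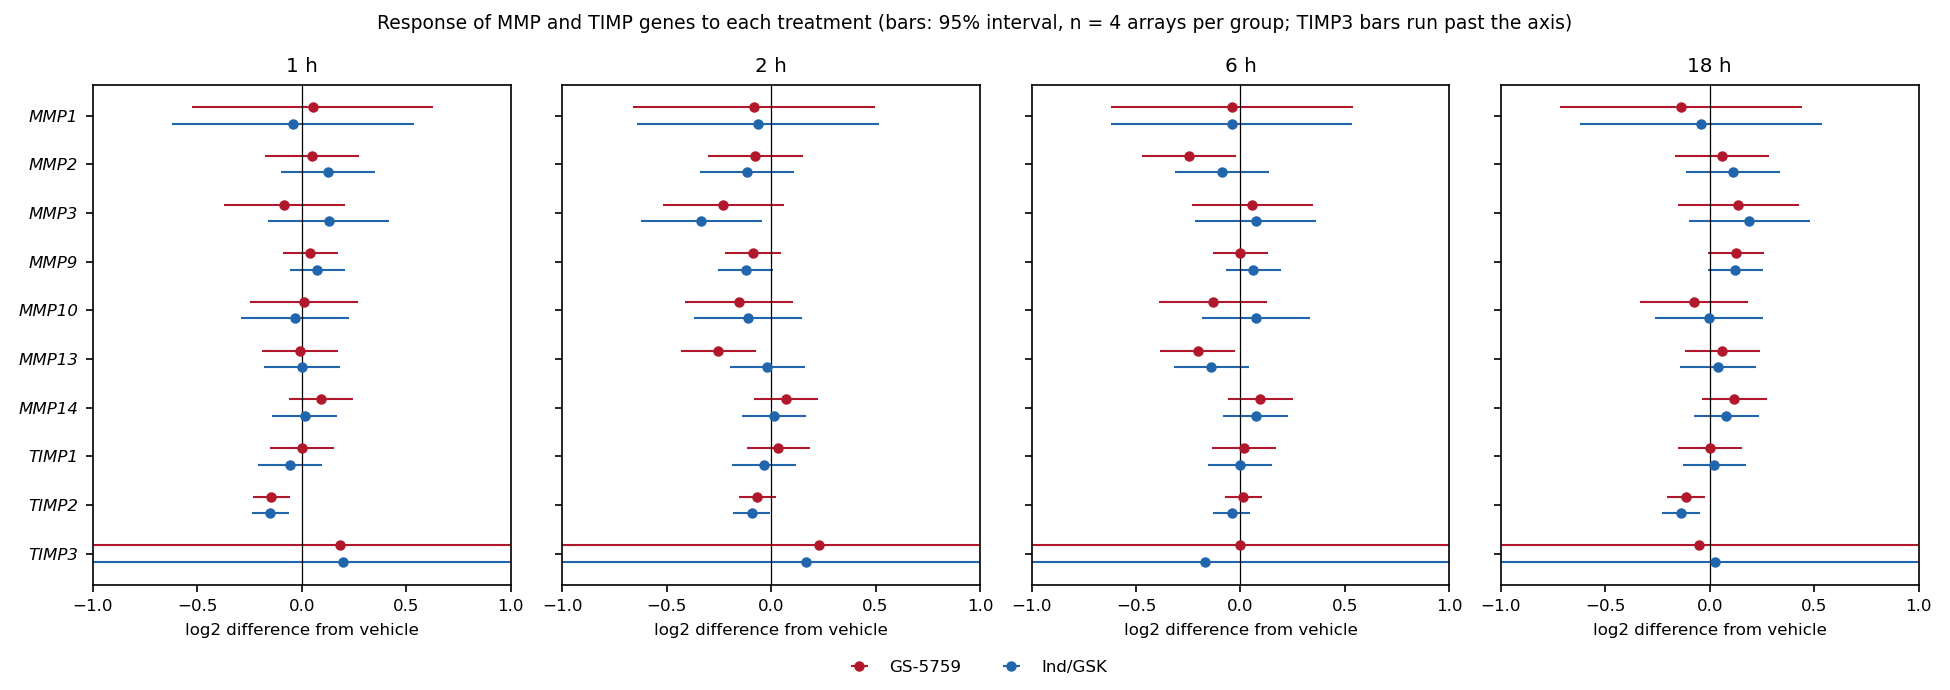
Log2 differences from vehicle at each time for GS-5759 and Ind/GSK. Points are differences of group means on the log2(signal + 16) scale and bars are 95% intervals, with 4 arrays per group. All points lie between -0.33 and 0.23, and TIMP3 bars run past the axis because 1 array in each group is high.

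TIMP2 came nearest to a call. After 1 h its signals were 9115, 7699, 8861 and 8536 with GS-5759, 8254, 8653, 8543 and 8553 with Ind/GSK, and 9845, 9176, 9816 and 8965 with vehicle. All 4 Ind/GSK arrays were below all 4 vehicle arrays, while GS-5759 arrays overlapped vehicle. The log2 difference was -0.15 ± 0.04 for GS-5759 (adjusted p = 0.323) and -0.15 ± 0.04 for Ind/GSK (adjusted p = 0.0539, a fold of 0.900). With replicate as a block the Ind/GSK difference passed, at an adjusted p of 0.0141, and 22.4% of tested genes then passed in that comparison.

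The whole distribution of Ind/GSK arrays at 1 h was lower: the median difference over all tested genes was -0.11, and 7.29% of them had all 4 Ind/GSK arrays below all 4 vehicle arrays. After each array was centred on its 75th percentile the TIMP2 difference was -0.03, and after quantile normalization -0.07. Without replicate 3 it was -0.14 (adjusted p = 0.124). The TIMP2 difference with Ind/GSK at 1 h is therefore a value of small size that depends on how arrays are scaled. This covers that comparison only. The median over all tested genes was -0.02 with GS-5759 at 1 h and -0.03 with Ind/GSK at 18 h. Over the 8 comparisons with vehicle, TIMP2 differences ran from -0.15 to 0.01, and 5 had an unadjusted p under 0.05 by limma.

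At 18 h the TIMP2 signals were 8979.7, 9053, 9017 and 9825 with GS-5759, 9215, 9516, 8628 and 8908 with Ind/GSK, and 9841, 9958, 10056 and 10032 with vehicle. All arrays of both treatments were below all vehicle arrays, as in 0.919% of tested genes for GS-5759 and 1.42% for Ind/GSK. The differences were -0.11 ± 0.04 (adjusted p = 1.00) and -0.14 ± 0.04 (adjusted p = 0.454), and neither passed. Both treatments share these 4 vehicle arrays, whose mean was the highest of the 12 groups.

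With GS-5759 the other TIMP2 probe sets did not follow the main one, while with Ind/GSK they were lower at 1 and 18 h, where it was lowest. Over the 8 comparisons with vehicle, the main probe set was higher in 1, and the others were higher in 9 of 16 differences. With GS-5759 they differed from vehicle by 0.05 and -0.02 at 1 h, 0.13 and 0.19 at 2 h, 0.21 and 0.12 at 6 h, and 0.02 and -0.04 at 18 h. With Ind/GSK both were lower at 1 h, by -0.10 each, and at 18 h, by -0.07 each. The median difference over all tested genes in these comparisons was -0.11 and -0.03. No TIMP2 probe set passed when all 41091 probe sets with a single symbol were tested, and the lowest adjusted p of the main one was 0.108.

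**Figure D4:**
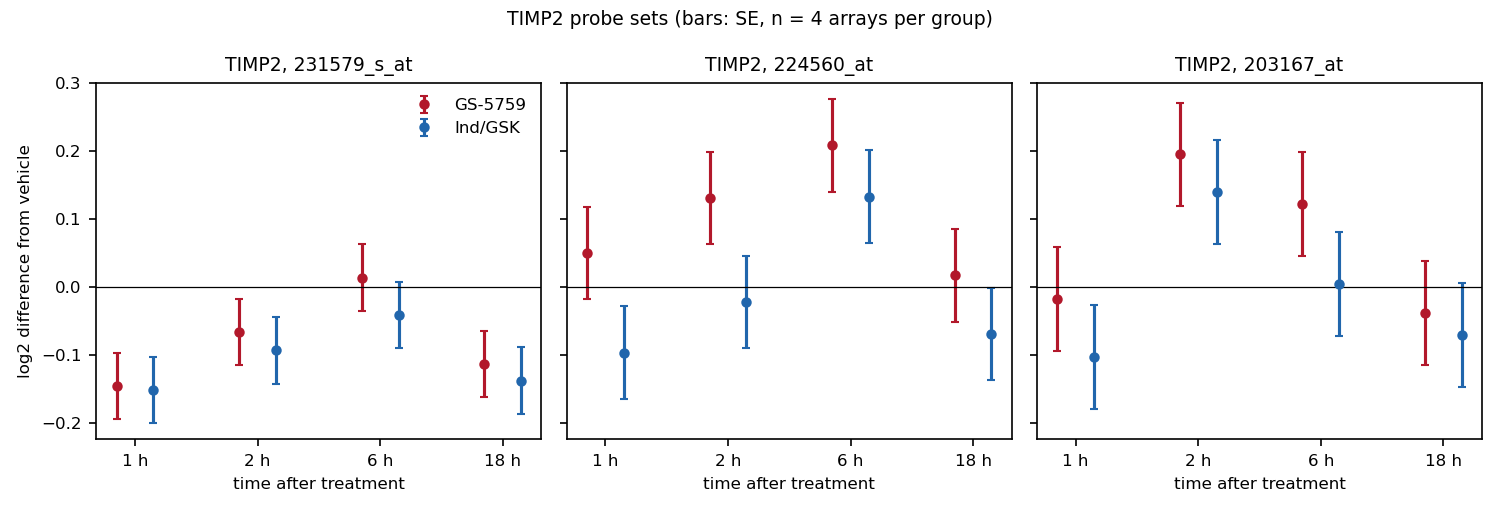
Log2 differences from vehicle for the 3 TIMP2 probe sets, by time and treatment, on the log2(signal + 16) scale, with SE bars and 4 arrays per group. The main probe set, at the left, is below 0 at 1 and 18 h with both treatments, while with GS-5759 the other probe sets are above 0 at 2 and 6 h.

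MMP2 was the other tested gene whose difference from vehicle was called under an alternative fit. At 6 h its signals were 219.6, 172, 219 and 174 with GS-5759, 229.7, 224, 231 and 194 with Ind/GSK, and 232, 247, 269 and 194 with vehicle. GS-5759 arrays were below their same-numbered vehicle arrays in 4 of 4 replicates, but the groups overlapped. The difference was -0.25 ± 0.11 (adjusted p = 0.327), and it passed with replicate as a block (adjusted p = 0.0397), where 12.9% of tested genes passed. Without replicate 3 it was -0.23 (adjusted p = 0.501). For Ind/GSK it was -0.09 ± 0.11 (adjusted p = 0.808). At 6 h the median difference of the 4 tested genes of unrelated tissues was -0.24 with GS-5759 and 0.02 with Ind/GSK. Over all tested genes it was 0.003 and -0.05. A dimmer MMP2 probe set, below the threshold, went the other way at 6 h, by 0.37 with GS-5759 and 0.46 with Ind/GSK (adjusted p = 0.320 and 0.106 over all single-symbol probe sets). The direction for MMP2 is thus that of 1 of its probe sets.

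The main MMP14 probe set was slightly higher than vehicle in all 8 comparisons, by 0.01 to 0.12, and none passed. Its other probe sets were higher in 20 of 24 differences, from -0.17 to 0.29, and none passed. With Ind/GSK at 1 h, 2 of them were lower, by -0.14 and -0.17. Its signals at 18 h were 1448, 1519, 1670.5 and 1512 with GS-5759, 1402, 1455, 1588 and 1544 with Ind/GSK, and 1415, 1247, 1536 and 1475 with vehicle. The 8 comparisons share vehicle arrays in pairs, so their common sign is not 8 separate observations. TIMP1 differences ran from -0.06 to 0.03, with no interval beyond -0.21 or 0.19. MMP9 differences ran from -0.12 to 0.13 over the 8 comparisons, and none passed.

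Among the dim genes, MMP13 with GS-5759 at 2 h had signals of 10.8, 16.7, 12.3 and 16.6, against 20.7, 20.5, 17.2 and 20.5 with vehicle. All 4 GS-5759 arrays were below all 4 vehicle arrays, and the difference was -0.25 ± 0.09 (adjusted p = 0.194). The same order held in 5.18% of the tested genes, which do not include MMP13. With Ind/GSK at 2 h the MMP13 signals were 16.9, 18.5, 20.8 and 21, a difference of -0.02 ± 0.09. MMP3 with Ind/GSK at 2 h had signals of 74.7, 98.5, 93.7 and 141, against 115, 148, 146 and 114 with vehicle, and the groups overlapped. The MMP3 difference was -0.33 ± 0.14 (adjusted p = 0.326). MMP1 differences ran from -0.14 to 0.05 and MMP10 differences from -0.15 to 0.07. All group means of these 4 genes were below the threshold.

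The second comparison set GS-5759 against Ind/GSK at the same dose and time, at each of the 4 times and averaged over them. Of 50 differences over the 10 genes, 0 were called by limma and 1 had an unadjusted p under 0.05. The share of all tested genes called was 0% at each time and 0.0759% for the average, and among all 19775 genes, where the dim genes were fitted, it was 0% and 0.0354%. Differences of the 5 tested genes ran from -0.16 to 0.08, and their 95% intervals lay between -0.38 and 0.27, or 0.768-fold to 1.20-fold. An absent call does not show that the treatments act alike, and the intervals were narrower for some genes, with bounds of -0.08 and 0.14 for TIMP2.

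The difference with the lowest unadjusted p was MMP13 at 2 h, -0.23 ± 0.09, with all GS-5759 arrays below all Ind/GSK arrays. The same order held in 0.329% of the tested genes, which do not include MMP13. The MMP13 difference had an unadjusted p of 0.0125 by limma, or 0.0624 adjusted over the 5 comparisons of this gene, and MMP13 signals are near background. Adjusted over all genes, the lowest limma p of MMP13 in these 5 comparisons was 0.458. TIMP2 at 6 h had GS-5759 signals of 9296, 9395, 9275 and 9355, all above the Ind/GSK signals of 8869, 8750.5, 9151 and 9156. The TIMP2 difference was only 0.06 ± 0.04 (0.546 adjusted over the 5 comparisons), and 2.29% of tested genes showed all GS-5759 arrays above. For MMP2 at 6 h the difference was -0.16 ± 0.11, with a 95% interval of -0.38 to 0.07. There the 4 tested genes of unrelated tissues had a median difference of -0.14, and all tested genes 0.06. For MMP14 and TIMP1 averaged over the 4 times the differences were 0.05 ± 0.04 and 0.03 ± 0.04.

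The third comparison asked whether the responses changed with time. The mean response of both treatments differed between neighbouring times in 0 of 30 tests (3 at an unadjusted p under 0.05, limma), while 0.27%, 0.708% and 0.556% of all tested genes passed at 2 against 1 h, 6 against 2 h and 18 against 6 h. Among all 19775 genes these shares were 0.0961%, 0.298% and 0.217%. Taken by treatment and over any pair of times, 0 of 120 response changes passed and 9 had an unadjusted p under 0.05, or 0 and 7 without replicate 3. The share over all genes was not counted for these changes. Of the 120 changes, the lowest unadjusted p was for MMP9, whose response to Ind/GSK was 0.24 ± 0.09 higher at 18 h than at 2 h (adjusted p = 0.345). TIMP2 under GS-5759 was nearest after it among tested genes, 0.16 ± 0.06 higher at 6 h than at 1 h (adjusted p = 0.552).

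In vehicle, the 2, 6 and 18 h groups were set against 1 h. None of 30 differences passed (4 at an unadjusted p under 0.05, limma), while 2.72%, 4.8% and 5.72% of all tested genes and 1.39%, 2.52% and 2.74% of all 19775 genes passed. MMP2 signals in vehicle were 176, 164, 206 and 202 at 1 h, 226, 218, 257 and 167 at 2 h, 232, 247, 269 and 194 at 6 h and 253, 166, 201 and 171 at 18 h. The 6 h group was higher than 1 h by 0.31 ± 0.11 (adjusted p = 0.112), in 3 of 4 replicates. With replicate as a block this passed (adjusted p = 0.00610, with 21.1% of tested genes passing), and without replicate 3 it was 0.29 (adjusted p = 0.204). The dimmer MMP2 probe set differed by -0.08. The vehicle arrays at 6 h against which GS-5759 was compared were thus the highest MMP2 group of the 12, at 236 ± 31.1 (SD, n = 4).

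The genes around these enzymes were taken from 5 lists with 67 members, of which 43 were tested. In the 8 comparisons with vehicle, 9 calls were rises and 1 was a fall, and they came from 4 of the 43 tested genes. The share of all tested genes called in that fit was 0.32% for GS-5759 and 2.47% for Ind/GSK at 1 h. It was 3.05% and 4.5% at 2 h, 1.88% and 5.01% at 6 h, and 0% and 0.0506% at 18 h. Whether the lists held more calls than these shares was not tested. With replicate as a block, 52 calls were rises and 24 were falls, and the share of all tested genes that passed was 1.69% for GS-5759 and 22.4% for Ind/GSK at 1 h, 11.1% and 14.6% at 2 h, 12.9% and 22% at 6 h, and 0.219% and 2.56% at 18 h. Among AP-1 and ETS factors, 1 of 9 tested genes rose in each comparison at 1 and 2 h and with Ind/GSK at 6 h, and that gene was FOSL2. The blocked fit made 16 calls of a rise and 7 of a fall in this list over the 8 comparisons. FOSL2, an AP-1 subunit, averaged 4569.8 ± 789.8 with GS-5759 and 4329 ± 604 with Ind/GSK at 2 h, against 2058 ± 185 with vehicle (SD, n = 4). The rises were 1.13 ± 0.12 (2.19-fold) for GS-5759 and 1.06 ± 0.12 (2.09-fold) for Ind/GSK, with adjusted p of 1.81e-08 and 1.04e-07. At 1 h FOSL2 rose by 0.59 ± 0.12 with GS-5759 and 0.52 ± 0.12 with Ind/GSK, and without replicate 3 the Ind/GSK rise at 1 h was 0.43 (adjusted p = 0.0530) and that at 6 h was 0.38 (adjusted p = 0.0752).

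Among 10 tested genes of MMP activation and clearance, PLAUR, the urokinase receptor, was the only gene called, while the blocked fit made 12 calls of a rise and 2 of a fall over the 8 comparisons. It averaged 1092 ± 114 with GS-5759 and 1076 ± 122 with Ind/GSK at 2 h, against 738 ± 84.7 with vehicle, and rose by 0.56 ± 0.12 and 0.53 ± 0.12 (adjusted p = 0.00279 and 0.00395). Among 9 tested ADAM and ADAMTS proteases, ADAMTS15, an enzyme that cuts versican and aggrecan, rose at 2 h, and the blocked fit made 12 calls of a rise and 2 of a fall. It averaged 1131 ± 464 with GS-5759 and 1056 ± 391 with Ind/GSK, against 430.4 ± 157 with vehicle. The rises were 1.34 ± 0.29 (2.53-fold, adjusted p = 0.00411) and 1.26 ± 0.29 (2.39-fold, adjusted p = 0.00656).

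The only call among 7 tested genes of the list of other MMPs and TIMP4 was MMP16, the membrane-bound enzyme MT3-MMP. With GS-5759 at 2 h it averaged 158 ± 30.8, against 205 ± 22.4 with vehicle, and fell by 0.36 ± 0.09 on the log2 scale (adjusted p = 0.0225). With Ind/GSK at 2 h it averaged 202 ± 13.1. Its signal was near the threshold of about 154, with 123 to 195 in the GS-5759 arrays at 2 h. The median difference of the 4 tested genes of unrelated tissues at 2 h was -0.13 with GS-5759 and -0.07 with Ind/GSK. The MMP16 difference between GS-5759 and Ind/GSK was -0.34 ± 0.09 at 2 h, which did not pass (adjusted p = 1.00), and -0.18 ± 0.05 over the 4 times (adjusted p = 0.0872, or 0.0148 with replicate as a block, where 19.7% of tested genes passed). In the blocked fit this list had 7 calls of a rise and 6 of a fall. None of the 8 tested matrix substrates of MMPs was called without the block, and the blocked fit made 5 calls of a rise and 7 of a fall. The rises of PLAUR and ADAMTS15 and the fall of MMP16 at 2 h also passed without replicate 3.

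MMP1 and MMP10, whose promoters are textbook AP-1 targets, are given beside FOSL2 for the same time. At 2 h MMP1 differed from vehicle by -0.08 ± 0.29 with GS-5759 and -0.06 ± 0.29 with Ind/GSK, and neither passed. MMP10 differed by -0.15 ± 0.13 with GS-5759 and -0.11 ± 0.13 with Ind/GSK, and neither passed. All group means of both genes were below the threshold, which limits these values. MMP3 and MMP13, also below the threshold, had their lowest differences from vehicle at 2 h. These were -0.33 for MMP3 with Ind/GSK and -0.25 for MMP13 with GS-5759, and neither passed. Whether any of these genes followed FOSL2 was not tested.

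**Figure D5:**
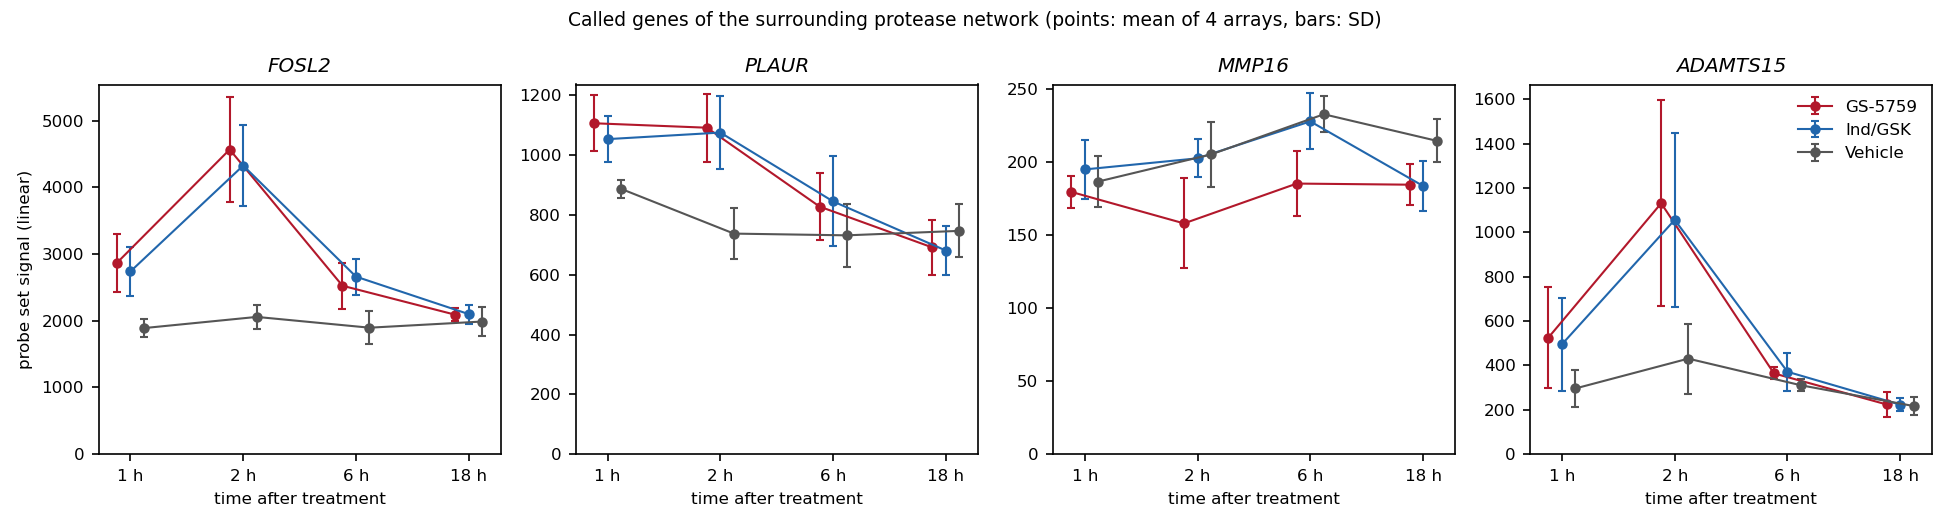
Mean signal on a linear scale of FOSL2, PLAUR, MMP16 and ADAMTS15 by time for GS-5759, Ind/GSK and vehicle, with SD bars and 4 arrays per group. With both treatments FOSL2, PLAUR and ADAMTS15 lie above vehicle at 2 h, while MMP16 lies below vehicle at 2 h with GS-5759.

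For the 4 tested genes with the widest range of group means, the genes with the most similar profile over the 48 arrays were found by Pearson correlation among 11864 genes. They were SLC7A8 (r = 0.80), KLRG1 (0.73) and NPL (0.71) for MMP2, and DBI (0.67), ZNF442 (0.65) and ZNF234 (0.61) for TIMP2. For MMP9 they were DPEP2NB (0.65), IL17C (0.61) and OR7E104P (0.59), and for TIMP1 they were CST3 (0.84), QTRT1 (0.84) and MTCH1 (0.83). All points share array scaling and replicate, so these values are descriptions.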

How the data were processed

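RNA of 48 BEAS-2B samples was hybridised to Affymetrix U133 Plus 2.0 arrays, 1 array per sample. As deposited, each value was a linear intensity of a probe set. The submitters' processing notes name PLIER and Affymetrix Expression Console as the authors' tools. Their versions and any normalization between arrays are not given in the sources used here. Array medians of log2(intensity + 16) ran from 7.00 to 7.17, correlations between arrays from 0.968 to 0.997, and no columns were identical. Signal over background and the number of arrays limit the precision, and read depth does not apply.

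Groups and replicate numbers came from sample titles. Of 54675 probe sets, 62 were controls, 11721 lacked a symbol, 41091 carried a single symbol and 1801 carried several, as the array annotation gives them. For 41037 of the single-symbol probe sets the gene identifier was found in RefSeq, and the symbol given there was used. The brightest single-symbol probe set stood for each of 19775 genes. The 10 genes and the lists were chosen with earlier results of these data known. Named list genes were up to 4 called per list with the largest change from vehicle, and 3 most similar profiles were named for the 4 tested members with the widest range of group means.

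Group means on log2(intensity + 16) were fitted with limma 3.58.1 in R 4.3.3 (lmFit, eBayes without trend, 36 residual degrees of freedom) for genes above the 40th percentile of gene means. P-values were adjusted by Benjamini-Hochberg over all genes tested in a comparison and called under 0.05, with 95% intervals. The fit was tested on simulated data. Same-numbered arrays deviated together from their group means: all 60 pairs correlated above 0.1 (0.300 to 0.946), so replicate numbers were treated as pairs in a blocked fit, while the fit without a block stayed the main result. Arrays of different number reached 0.767. Alternatives were the block, quantile normalization, 75th percentile centring, pseudocounts of 1 and 64, no filter and a 60th percentile filter, eBayes with trend and robust, the mean of all probe sets, fits of only the groups compared, and leaving out each array. Added after seeing the data were fits without all replicate 3 arrays, also with no filter, and the block with no filter. Data were read with the R package data.table (version 1.17.8) and jsonlite 2.0.0, and figures were drawn with Python 3.11.15, numpy 2.4.6, pandas 2.3.3 and matplotlib 3.10.9.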

Additional observations from a re-analysis of the deposited data

Results flagged for a closer look

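Among 120 groups of 4 arrays (10 genes, 12 groups), 16 held an array whose gap to its neighbour, divided by the range of the group, was above Dixon's 95% critical value for 4 values. Chance alone passes that value in about 1 in 20 groups. TIMP3 accounted for 11 of the 16, each with the array of replicate 3 as the highest. The ratios for TIMP3 were 0.9127, 0.9622, 0.9259 and 0.8795 with GS-5759 at 1, 2, 6 and 18 h. With Ind/GSK at the same times they were 0.8851, 0.939, 0.8624 and 0.9778, and with vehicle at 1, 6 and 18 h 0.9579, 0.9503 and 0.9281. In these groups replicate 3 gave TIMP3 signals of 499.8 to 822, and the other arrays 42.8 to 80.8.

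The other 5 groups concerned 3 genes. TIMP2 was lowest in replicate 4 with GS-5759 at 2 h (8511, the others 8848 to 8864, ratio 0.9555) and highest in replicate 4 with GS-5759 at 18 h (9825, the others 8980 to 9053, ratio 0.9097). In vehicle at 2 h the TIMP2 signal of replicate 3 was lowest (8664, the others 9324 to 9418, ratio 0.8809). MMP3 was lowest in replicate 3 with Ind/GSK at 1 h (98.8, the others 117 to 119, ratio 0.9149). MMP13 was lowest in replicate 3 of vehicle at 2 h (17.2, the others 20.5 to 20.7, ratio 0.9394), which is 1 of the vehicle groups in the MMP13 comparison at 2 h.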

How the results depend on the processing

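The 10 genes had 0 calls in each of 19 comparisons, and this count changed in 3 of them under the other settings or in 48 fits that left out 1 array each. The fits that left out 1 array covered only the 5 tested genes. For Ind/GSK against vehicle at 1 h, 1 gene (TIMP2) was called with the replicate block (adjusted p = 0.0141), with the 60th percentile filter (0.0485), with eBayes with trend and robust (0.0297) and with no filter and the replicate block (0.0278). Leaving out 1 array each gave 0 to 1 calls in that comparison, the call being TIMP2 without replicate 4 of vehicle at 1 h (-0.18, adjusted p = 0.0352). For GS-5759 against vehicle at 6 h, 1 gene (MMP2) was called with the replicate block (0.0397). In vehicle at 6 h against 1 h, 1 gene (MMP2) was called with the replicate block (0.00610), with quantile normalization (0.34, adjusted p = 0.0381) and with no filter and the replicate block (0.0112). The block changed no other call among these genes, and no call changed direction. The cause of these changes was not tested. The 60th percentile filter changes the genes in the fit as well as those in the adjustment. Low signal limits MMP1, MMP3, MMP10, MMP13, MMP9 and, outside replicate 3, TIMP3.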

Other observations

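Other genes of the protease network also differed between replicate 3 and the other 36 arrays, in all treatments together and with no test. On the log2(signal + 16) scale TIMP4, another TIMP, was 1.38 higher in replicate 3, PLAU, which encodes the protease urokinase, 1.27 higher, LAMB3, a chain of laminin-332, 1.99 higher, and TNC, the matrix protein tenascin C, 1.88 higher. COL4A1, COL4A2 and COL5A1, which encode collagen chains, were lower, with differences of -0.89, -0.94 and -0.54. MMP19 and MMP24 were also lower. ADAM12 and ADAMTS5, both proteases, were lower, with differences of -1.43 and -1.27. Among AP-1 genes FOS was 1.36 higher and FOSL1 was lower, with a difference of -0.99. Calprotectin genes S100A9 and S100A8 were 10.63 and 5.56 higher.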
